A study of Mus musculus with 8 samples.

Results

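The 4 libraries of PBS-injected mice describe the starting transcriptome of LSK cells of the bone marrow, named for the gate Lineage- Sca-1+ c-Kit+, with no glucose or lipid given. They were chosen by label, 4 of the 8 libraries of the series, and no treated library was used. Of 23284 gene symbols, 22525 were ranked by their mean level over the 4 libraries, after leaving out the 759 symbols that start with Mir (650) or Snor (109). The values were FPKM, fragment counts scaled by transcript length and library size, so that levels of different genes can be set side by side per length. Errors given as ± are standard deviations over the 4 libraries (n = 4).

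LSK cells are the fraction of marrow that holds haematopoietic stem cells and the multipotent progenitors that descend from them. They lack the surface antigens of mature blood lineages and carry the receptor kinase c-Kit, encoded by Kit, and Sca-1, encoded by Ly6a. Within the gate, long-term stem cells are rare and mostly out of cycle, and the multipotent progenitors, many of them Cd34 and Flt3 positive, are more numerous and divide more often. Such cells transcribe stem cell regulators together with low levels of genes of several mature lineages, a state known as lineage priming.

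The cells came from male C57BL/6 mice, bought from SLC, that were 12 to 13 weeks old and were kept under 12 h of light and 12 h of darkness. After an overnight fast of more than 14 h, PBS was injected intravenously in the early morning for 7 days, and the mice ate freely during the day. On day 8 marrow was taken from femurs and tibias and about 10000 LSK cells were sorted per extract. The labels call the libraries biological replicates, without saying whether a library is 1 mouse or a pool, and they do not say whether the mice were fasted at the time of harvest. A sorted population is a mixture, and in such bulk RNA fewer cells of a type and less RNA per cell cannot be told apart.

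Deposited values carry no fragment counts, but the smallest values of genes with a single annotated transcript clustered at what 1 fragment would give for depths of about 6050000 to 6390000 fragments per library. Each depth is a median over 71 to 110 of 911 to 1000 such genes, those whose implied depth fell in a preset window. Any scaling between libraries, which was not tested, would enter these depths. At such depths 1 fragment on a 2 kb transcript was worth 0.0783 to 0.0826 FPKM. Values under about 0.1 FPKM therefore rest on single fragments at about that length, and can rest on more of them for longer transcripts. Among the 11287 genes with a mean of at least 1 FPKM, Pearson's r of log2(FPKM + 1) between libraries lay between 0.971 and 0.985, a description across genes, which are not independent replicates. The median coefficient of variation over the 4 libraries was 22.4% for genes of 1 to 10 FPKM and 12.5% for genes of 10 to 100 FPKM, and 117% under 1 FPKM. Levels under 1 FPKM are therefore given as near-silent and are not ordered among themselves.

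Of the ranked genes 11287 (50.1%) had a mean of at least 1 FPKM, 7207 reached 10 FPKM, 1128 reached 100 FPKM and 25 reached 1000 FPKM. In single libraries the number at or above 1 FPKM lay between 11130 and 11359. At the other end, 6202 genes (27.5%) were listed at 0 in every library. No small group of genes dominated the ranked transcriptome: the 10 highest held 3.60% of the summed FPKM, the 100 highest 17.3%, and 885 genes were needed to reach 50%. The left-out symbols behaved differently, since Mir682 alone took 18.9% to 22.3% of all FPKM in a library, a share that a very short annotated length can inflate.

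**Figure D1:**
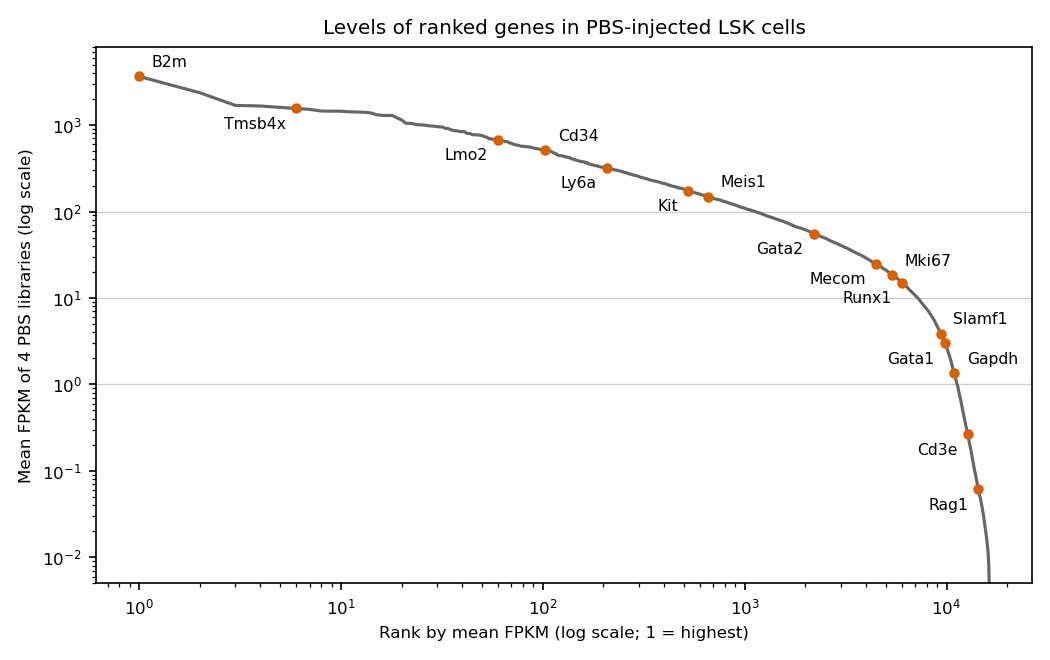
Mean FPKM over the 4 PBS libraries (log scale) against rank by mean FPKM (log scale, 1 is the highest) for the ranked genes with a mean above 0, with marked genes as points. Kit, Ly6a and Cd34 lie above 100 FPKM, the stem cell factors Gata2, Mecom and Runx1 between 10 and 100 FPKM, and the lymphoid gene Rag1 and the T cell gene Cd3e under 1 FPKM.

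The most abundant transcript was B2m, the light chain of MHC class I molecules, at 3627, 3853, 3174 and 3980.4 FPKM in PBS replicates 1 to 4 (3658 ± 355). It stood above the second gene, the ferritin heavy chain Fth1 (2140.5, 2165, 2509 and 2658 FPKM), in each library. The classical class I heavy chains H2-K1 (1454 ± 129.8 FPKM) and H2-D1 (1426 ± 65.7 FPKM) were also among the first 11 genes. Among the 30 highest genes were the actin regulators Pfn1 (1690.2 ± 284), Tmsb4x (1556 ± 55.3) and Arhgdib (1049.7 ± 20.3) with Actb itself (1319 ± 220.4 FPKM). Serglycin, Srgn, the proteoglycan core of blood cell granules, averaged 1451 ± 423 FPKM, with 1816, 1801, 1208 and 979 FPKM by library, so that it was higher in PBS replicates 1 and 2 than in replicates 3 and 4. Gpx1, which removes peroxides, stood at 1662 ± 113 FPKM, and the interferon-inducible membrane proteins Ifitm3 (1290.2 ± 149.7) and Ifitm2 (1050.0 ± 115 FPKM) were 18th and 21st.

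Energy and protein synthesis genes filled most other places among the 30. They were the respiratory chain genes Ndufa4 (1601 ± 105), Atp5b (1414 ± 181) and Cox6b1 (971 ± 144 FPKM), the ADP/ATP carrier Slc25a5 (1210.4 ± 257), the translation factors Eif5a (1294 ± 277) and Eef1a1 (1293 ± 75.6 FPKM), and 6 ribosomal protein genes, among them Rpl32 (1446 ± 165 FPKM). The remaining ones were the ribosome-bound scaffold Gnb2l1 (997 ± 152), the chaperone Hsp90ab1 (1407 ± 266), the variant histone H2afy (1009 ± 31.6), Sh3bgrl3 (975 ± 145), the mitochondrial leucyl-tRNA synthetase Lars2 (1147 ± 133) and the ribosomal RNA precursor Rn45s (1386 ± 77.3 FPKM). None of the 30 belonged to the stem cell transcription factors listed below.

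The sorted cells carried the RNA of their gate. Cd34, the sialomucin of progenitor and endothelial surfaces (chromosome 1), was at 507, 520.3, 498 and 533 FPKM (515 ± 15.3). Ly6a (chromosome 15) was at 295, 338, 299 and 345 FPKM (319 ± 25.9). Kit (chromosome 5) was at 192, 170.3, 166 and 169 FPKM (174 ± 12.2). The 4 libraries hardly differed in these genes, whose coefficients of variation were 2.97%, 8.10% and 6.99%, and all 3 genes stood above the 97th percentile of the ranking. Since the cells were sorted on the proteins of Kit and Ly6a, these levels check the label and are not a finding.

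Antigens that the lineage gate commonly excludes were low but not all silent. Of 10 such genes measured, 7 averaged under 1 FPKM, among them the T cell receptor chains Cd3d, Cd3e and Cd3g, Cd8a, and the B cell gene Ms4a1 (range 0.0122 to 0.355 FPKM). The exceptions were Itgam, the Mac-1 integrin chain, at 6.15, 7.39, 3.13 and 3.30 FPKM, Cd4 at 3.14, 1.44, 3.34 and 2.17 FPKM, and the NK cell receptor Klrb1c at 0.935, 0.592, 2.06 and 1.051 FPKM. The labels name B220, CD3, Gr-1 and Mac-1 for an analysis of lineages and do not list the antibodies of the sort. Ptprc, the gene of CD45 and of its B220 form, is transcribed in all blood cells and was at 78.9, 75.6, 48.8 and 54.1 FPKM.

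All 25 transcription factors listed for stem cells had a mean of at least 1 FPKM, 21 of them at least 10 and 4 at least 100, against 50.1%, 32.0% and 5.01% of all ranked genes. The factors were listed with earlier results of these data known, and the ranked genes include the silent ones. The shares therefore describe the list and are no test of it. The highest was Lmo2, a LIM adaptor of the SCL complex, at 683, 716, 600.2 and 690.5 FPKM (672 ± 50.1). Meis1, the homeobox partner of HoxA proteins, followed at 148, 148, 143 and 155 FPKM (149 ± 4.75), and Myb, needed for definitive blood formation, at 137, 139, 109 and 124 FPKM (127 ± 14.0). Cbfb, the partner subunit of the RUNX proteins, was at 110.4 ± 12.9 FPKM. The levels of Lmo2 did not overlap with those of any other factor in the list.

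A middle group held factors central to stem cell identity. The leucine zipper factor Hlf was at 67.1, 77.2, 56.3 and 56.9 FPKM, Gata2 at 58.0, 55.8, 54.0 and 54.7 FPKM, the ETS factor Fli1 at 54.4, 54.4, 51.5 and 53.1 FPKM and Mecom, which encodes EVI1, at 26.9, 22.997, 23.8 and 25.5 FPKM. Gata2, Fli1, Meis1 and Mecom were steady, with coefficients of variation of 3.21%, 2.60%, 3.20% and 6.93%. Etv6 (87.6 ± 8.34), Spi1, listed under its older symbol Sfpi1 (87.0 ± 2.72), Ldb1 (62.7 ± 4.11) and Mycn (49.8 ± 6.00 FPKM) lay in the same range. Erg (14.2 ± 2.05), Tal1 (11.1 ± 0.670), Lyl1 (26.5 ± 3.22), Gfi1 (18.5 ± 4.30), Bmi1 (26.9 ± 8.24) and Zfx (11.1 ± 1.28 FPKM) were lower, and Prdm16 (4.30 ± 0.368 FPKM) lower still. Gfi1b varied more than these, at 25.4, 26.7, 22.0 and 45.2 FPKM, with replicate 4 the highest.

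Family members were transcribed very unequally. Among the GATA factors Gata2 (55.6 ± 1.78 FPKM) stood above Gata3 (7.36 ± 2.09) and Gata1 (2.98 ± 0.880 FPKM) in each library, and Gata4, Gata5 and Gata6, factors of other tissues, were at or near 0. Among the RUNX factors Runx3 (23.7, 19.8, 20.6 and 16.1), Runx2 (20.7, 20.9, 17.9 and 15.5) and Runx1 (16.7, 15.6, 13.3 and 14.3 FPKM) overlapped, and Runx1 was the lowest of the family in each library. Of the Ikaros factors Ikzf1 (41.1 ± 4.79 FPKM) stood above Ikzf5 (5.54 ± 0.580) and Ikzf2 (4.62 ± 1.60 FPKM), which overlapped, and Ikzf4 (0.706) and Ikzf3 (0.0744 FPKM) averaged under 1 FPKM. Among the ID proteins Id2 (19.7 ± 4.76 FPKM) was first in each library, Id1 (2.00 ± 1.051) and Id3 (1.03 ± 0.728 FPKM) were far lower, and Id4 was near 0. Myc (293 ± 35.3 FPKM) exceeded Mycn (49.8 ± 6.00 FPKM) in each library, and Mycl was near 0 (0.0452 FPKM).

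The Hox clusters showed the same selectivity by cluster. In the Hoxa cluster Hoxa9 was first in each library (24.8, 30.9, 23.9 and 20.0 FPKM), followed by Hoxa7 (15.6, 16.7, 11.2 and 15.0), Hoxa10 (11.02, 10.7, 9.17 and 11.5) and Hoxa5 (7.22, 5.42, 4.06 and 5.28 FPKM). Hoxa3 (1.60 ± 0.248) and Hoxa6 (1.55 ± 1.10) were above 1 FPKM, Hoxa4 (0.696) and Hoxa2 (0.493) were under 1 FPKM, and Hoxa11 and Hoxa13 were listed at 0. The Hoxb cluster was far lower: Hoxb2 (2.35 ± 0.993), Hoxb5 (1.12 ± 0.652) and Hoxb4 (1.11 ± 0.544 FPKM) overlapped, and the other 7 genes averaged under 1 FPKM, with Hoxb1, Hoxb8 and Hoxb13 listed at 0. Hoxb4 and Hoxb5, both used to mark stem cells, were the lowest of the 25 listed factors. In the Hoxc cluster all 9 genes were at 0.107 FPKM or less, and all 9 Hoxd genes were listed at 0 in every library.

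Surface molecules that divide the LSK gate were present at different levels. Cd48, which marks multipotent progenitors, was at 244, 170.2, 204 and 219 FPKM and the lymphoid-primed progenitor receptor Flt3 at 167, 169, 131 and 182 FPKM. The long-term stem cell marker Slamf1, which encodes CD150, was at 3.26, 4.17, 2.97 and 5.12 FPKM, and Procr, which encodes EPCR, at 44.4, 70.6, 58.6 and 59.2 FPKM. In each library Cd48 thus stood far above Slamf1. Cd27 (131 ± 10.2), Cd9 (69.8 ± 7.88), Eng (65.1 ± 1.61) and Esam (50.3 ± 4.69 FPKM) were high, Itga2b (28.2 ± 13.5 FPKM) was highest in replicate 3, and Tek (6.21 ± 1.495), Fgd5 (6.15 ± 1.39) and Vwf (1.51 ± 0.475 FPKM) were low. N-cadherin, Cdh2, was near 0 (0.0409 FPKM).

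Of 28 genes listed as a long-term stem cell signature, 27 averaged at least 1 FPKM and 6 at least 100. The highest were Ifitm3 (1290.2 ± 149.7), Ifitm1 (791 ± 43.3), Ly6e (761 ± 79.3) and Gpr56 (691 ± 45.0 FPKM), which are not limited to stem cells, and among the lowest were Cldn10 (1.04 ± 0.998), Meg3 (1.02 ± 0.610) and Hoxb5 (1.12 ± 0.652 FPKM). Cdkn1c, the p57 inhibitor, was at 6.19, 8.89, 9.54 and 9.51 FPKM, and Hlf, Procr and Mecom of the same list are given above. The median of the list was 24.1 FPKM, the 79.7th percentile of all ranked genes, beside a median of 1.02 FPKM over all of them. Its members were also listed with earlier results known, and all ranked genes include the silent ones.

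Genes of the granulocyte and monocyte branch were transcribed at moderate to high levels. Of 19 granulocyte-monocyte priming genes 17 averaged at least 1 FPKM and 11 at least 10. Primary granule genes were unequal: Prtn3, proteinase 3, was at 169, 151, 187 and 186 FPKM and Mpo, myeloperoxidase, at 197, 120.2, 158 and 130.1 FPKM, both in each library. Ctsg, cathepsin G, was at 27.5, 15.2, 20.1 and 22.0 FPKM, whereas Elane, neutrophil elastase, was at 12.5, 2.02, 9.51 and 0 FPKM, listed at 0 in replicate 4. Calr (624 ± 136), Plac8 (426 ± 50.6) and Nkg7 (419 ± 57.5 FPKM) led the list. Calr and Nkg7 are not limited to this branch, and Nkg7 is also in the list of T and NK cell genes. The receptors Csf3r (53.0 ± 12.1) and Csf2ra (20.6 ± 1.59 FPKM) were above Csf1r (2.15 ± 0.514 FPKM) in each library.

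Among the C/EBP factors, Cebpz (38.2 ± 1.51 FPKM), a ribosome assembly factor by function, was highest, followed by Cebpg (16.2 ± 1.049). Cebpa, needed for the granulocyte-monocyte branch, was at 4.84, 3.66, 4.09 and 5.40 FPKM. Cebpb was at 30.8, 20.9, 5.46 and 4.84 FPKM, higher in replicates 1 and 2, Cebpd at 1.74 ± 0.271 FPKM, and the late granulocyte factor Cebpe was at 0, 0.139, 0.585 and 0.145 FPKM. Irf8, of the monocyte and dendritic branch, was at 13.0 ± 2.81 FPKM.

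Lymphoid priming was partial. Of 21 listed genes in the files 14 averaged at least 1 FPKM and 10 at least 10. Dntt, the template-free polymerase of early lymphoid progenitors, was at 64.3, 80.9, 20.7 and 127 FPKM. Replicate 3 was the lowest and replicate 4 the highest, about 6 times as high, which is among the widest ranges of the priming genes. Lsp1 (209.6 ± 20.4), Flt3 and Cd52 (156 ± 35.4 FPKM) were the highest, with Tcf3 (56.3 ± 7.90), Bcl11a (42.6 ± 5.37), Ikzf1 and Mef2c (39.3 ± 6.30 FPKM) below them. Rag2 was at 2.89, 3.02, 0.567 and 1.97 FPKM, and its partner in V(D)J recombination, Rag1, at 0.0439, 0.178, 0 and 0.0231 FPKM. The committed stage genes were near-silent: Il7r was at 0.142, 0.335, 0 and 0.298 FPKM, Ebf1 at 0, 0, 0 and 0.0733 FPKM, and Pax5 was listed at 0 in every library.

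Of 19 megakaryocyte genes 17 averaged at least 1 FPKM and 8 at least 10. Nfe2, the platelet gene regulator, was at 396, 420.4, 392 and 403 FPKM (403 ± 12.7), one of the steadiest genes named here, with a coefficient of variation of 3.16%. Pf4, platelet factor 4, was at 46.6, 55.2, 70.9 and 92.7 FPKM and Gp9 at 19.0, 15.2, 22.0 and 27.5 FPKM. The other chains of the same platelet receptor were low: Gp5 (3.26 ± 1.74), Gp1ba (2.05 ± 0.401) and Gp1bb (0.582 ± 0.433 FPKM), and Gp6 was listed at 0.

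Erythroid genes were led by Car2, carbonic anhydrase 2, at 937, 1081, 749.6 and 878 FPKM. The regulators Gata1 (3.10, 1.71, 3.48 and 3.64), Klf1 (1.07, 4.87, 0.568 and 1.801) and Epor (0.787, 2.39, 2.51 and 2.30 FPKM) were low, and 16 of 20 listed genes averaged at least 1 FPKM. Adult globin RNA was present at levels that differed by library: Beta-s was at 201, 166, 24.4 and 19.4 FPKM, Hba-a1 at 164, 134, 21.3 and 20.5 FPKM and Hbb-b1 at 299.5, 288, 406 and 206 FPKM. Beta-s and Hba-a1 were higher in replicates 1 and 2, and Hbb-b1 was not. The globin genes are near-identical pairs, whose reads the authors' counting could split, so the share of each member is uncertain. Slc4a1, a membrane transporter of maturing red cells, was at 1.31, 0.628, 0.139 and 0.344 FPKM, under 1 FPKM in replicates 2 to 4.

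Mast cell and basophil genes were unequal, and several differed strongly by library. Of 14 listed genes, Kit among them, 10 averaged at least 1 FPKM and 5 at least 10. The other 4 averaged under 1 FPKM, and the median of the list was 4.24 FPKM. Cpa3, mast cell carboxypeptidase, was at 96.2, 93.2, 39.8 and 11.9 FPKM. The proteases Tpsb2 (45.6, 43.4, 16.6 and 1.19) and Cma1 (35.3, 42.5, 15.1 and 1.03 FPKM) were likewise lower in replicates 3 and 4, and so were the IgE receptor chain Fcer1a (9.01, 12.6, 4.6001 and 0.183) and Gzmb (10.4, 13.6, 4.11 and 0.124 FPKM). In these 5 genes replicate 4 was the lowest and replicate 3 the next lowest, and Tpsb2 and Cma1 were more than 30 times lower in replicate 4 than in replicate 1. Mcpt8, a basophil protease, was at 21.1, 22.3, 14.3 and 6.40 FPKM. Kit, which mast cells also carry, varied far less. Gzmb is also in the list of T and NK cell genes.

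**Figure D2:**
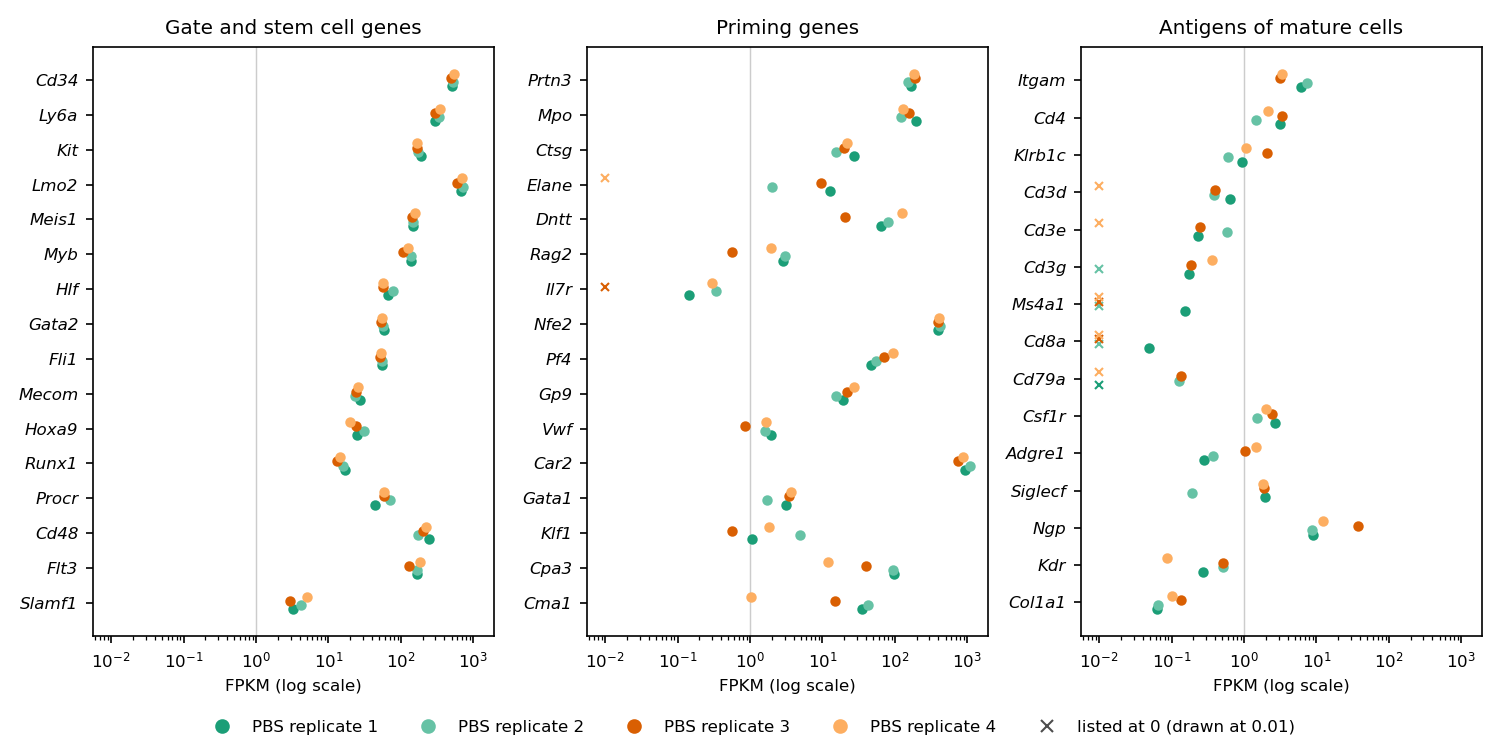
FPKM (log scale) of gate and stem cell genes, priming genes and antigens of mature cells in each of the 4 PBS libraries, 1 point per library, with a cross at 0.01 where a gene is listed at 0. The gate and stem cell genes lie close together across libraries, while Dntt, Elane, Klf1, Cpa3 and Cma1 are spread, and most antigens of mature cells lie under 1 FPKM.

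Cytokine receptors were transcribed widely. Of 39 listed, 32 averaged at least 1 FPKM and 21 at least 10. The common gamma chain Il2rg was first (326 ± 19.2 FPKM), above Kit and Flt3, and the interferon receptors Ifnar2 (111 ± 10.9) and Ifngr1 (101 ± 18.02 FPKM) were lower than these. Several other receptor genes were lower: Il3ra (3.87 ± 0.747), Il6ra (3.58 ± 0.994) and Epor averaged under 5 FPKM. Il2ra (0.00892), Lepr (0.0335) and Osmr (0.0637 FPKM) were near 0. The prolactin receptor Prlr was listed at 0.

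Mitochondrial energy genes were among the highest groups of the whole ranking. All 20 TCA cycle genes averaged at least 10 FPKM and 13 at least 100, led by Mdh2 (465 ± 93.4), Idh3g (367 ± 31.6), Idh2 (355 ± 35.2) and Sdhd (354 ± 43.8 FPKM). The lowest were Sucla2 (62.5 ± 0.934), Suclg2 (46.5 ± 6.31), Idh1 (23.1 ± 5.87) and Aco1 (15.9 ± 0.776 FPKM), the last 2 of which are cytosolic enzymes. Of 60 oxidative phosphorylation genes 47 averaged at least 100 FPKM, and their median was 286 FPKM, the 98.9th percentile. Muscle-type subunits stood apart: Cox7a1 (2.69, 2.72, 0 and 7.54) and Cox6a2 (0.629, 1.91, 1.34 and 5.30 FPKM) were low, and Cox8b was listed at 0, where their widely expressed relatives Cox7a2 (289.9 ± 50.4), Cox6a1 (657 ± 98.3) and Cox8a (655 ± 107 FPKM) were high. No symbol of the genes encoded in mitochondrial DNA was in the files used here.

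Glycolysis genes had a lower median, 25.9 FPKM, with a few very high members. Ldha, which turns pyruvate into lactate, was at 813, 733, 1298 and 974 FPKM, Pkm, listed as Pkm2, at 401, 351, 586 and 436 FPKM and Aldoa at 360.2, 360.2, 550.0 and 405 FPKM. Each of these was highest in replicate 3. Tpi1 was at 406 ± 71.8 FPKM. At the low end were Slc16a3 (4.13 ± 0.222), Eno2 (1.09 ± 0.253) and Pgam2 (0.812, 1.85, 0.216 and 0.214 FPKM), and Gapdh at 1.66, 1.40, 1.03 and 1.31 FPKM, a level that is taken up below with the number of copies of that gene.

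The isoforms of each step were ordered as follows. Among the glucose transporters Slc2a3, the high-affinity GLUT3, was at 47.1, 44.6, 51.0 and 39.0 FPKM and Slc2a1, the widely expressed GLUT1, at 24.998, 22.2, 26.8 and 29.7 FPKM. The ranges did not overlap. Slc2a8 (5.22 ± 0.631), Slc2a10 (2.82 ± 0.742) and Slc2a9 (1.60 ± 0.362 FPKM) were low, and the other 7, including the liver and islet form Slc2a2 (0.202) and the insulin-responsive form Slc2a4 (0.0557 FPKM), averaged under 1 FPKM. Of the hexokinases Hk1 (55.6, 49.7, 52.9 and 43.2) and Hk3 (40.4, 35.4, 55.4 and 26.5 FPKM) overlapped, Hk2 was at 8.65 ± 1.53 FPKM, and Hkdc1 was listed at 0. Pfkl (91.9 ± 17.5 FPKM) stood above Pfkp (32.5 ± 6.68) and Pfkm (23.6 ± 2.07 FPKM) in each library.

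Each of the later steps had 1 leading form. Aldoa stood above Aldoc (18.9 ± 3.74 FPKM). The liver and red cell pyruvate kinase Pklr was at 0.0886 FPKM beside Pkm. Ldha exceeded Ldhb (63.8 ± 3.23 FPKM) 15.0 times in the mean, Ldhd was at 3.21 ± 1.28 FPKM, and the testis form Ldhc was near 0. The enolase order is uncertain, since Gm5506 (98.5 ± 17.1 FPKM) is a near-identical copy of Eno1 (6.17 ± 3.49 FPKM) and the authors' counting could split reads between them. Eno3 (8.05 ± 1.77) and Eno2 were low and Eno4 near 0.

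Pyruvate dehydrogenase, which passes pyruvate into the TCA cycle, is switched off by 4 kinases and on by a pair of phosphatases. Pdk3 was at 108, 99.3, 121 and 111 FPKM, Pdk1, a target of hypoxia-inducible factor, at 51.1, 42.0, 41.6 and 36.2 FPKM, Pdk2 at 12.0, 15.2, 7.62 and 10.3 FPKM and Pdk4, which fasting induces in muscle and heart, at 0.131, 0, 0.278 and 0.690 FPKM. The 4 kinases did not overlap with each other, and Pdk3 held the first place in each library. Pdp1 (15.2 ± 3.06) was above Pdp2 (9.08 ± 1.30 FPKM) in each library. The subunits of the complex, Pdha1 (84.7 ± 5.02), Pdhb (87.2 ± 4.77), Dlat (26.9 ± 1.87) and Dld (85.6 ± 12.1 FPKM), were at 26.9 FPKM or more, and the pyruvate carrier gene Mpc2 (129 ± 9.71 FPKM) was far above Mpc1, listed as Brp44l (9.51 ± 1.95 FPKM).

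Fatty acid genes covered a wide range of levels. Mitochondrial oxidation enzymes were at moderate levels: Acadl (129.9 ± 9.41), Acaa2 (86.0 ± 8.82), Echs1 (84.4 ± 4.76) and Hadh (84.3 ± 6.54 FPKM), with the acyl-CoA synthetase Acsl5 steady at 108, 112, 109 and 110.1 FPKM. Cpt1a, the entry step in most tissues, was at 46.5, 48.0, 51.9 and 41.6 FPKM and Cpt2 at 23.2, 25.9, 24.0 and 27.0 FPKM, while the muscle form Cpt1b (0.283) and the neuronal form Cpt1c (0.409 FPKM) were under 1 FPKM. The transcriptional regulators of oxidation were low. Ppargc1b was at 4.398, 4.25, 7.38 and 5.80 FPKM, first of its group in each library, and Ppargc1a (0.723), Pparg (0.656), Ppard (0.380) and Ppara (0.0104 FPKM) averaged under 1 FPKM. Of the uptake genes Cd36 (0.379), Lpl (0.991) and Fabp3 (0.256 FPKM) were also under 1 FPKM, and the fatty acid binding protein gene Fabp5 was at 37.6, 32.5, 60.3 and 49.9 FPKM. Of 31 members 22 averaged at least 1 FPKM.

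Synthesis genes for fatty acids and cholesterol had a median of 23.1 FPKM, with 27 of 29 at or above 1 FPKM. Elovl1 (129 ± 22.8), Scd2 (97.5 ± 9.15), Apoe (96.5 ± 7.42) and Elovl5 (80.9 ± 5.64 FPKM) led them. The desaturase Scd1, the main form in liver, was at 0.577 FPKM beside Scd2, and of the acetyl-CoA carboxylases Acaca (2.45 ± 0.214 FPKM) was above Acacb (0.273 FPKM). Pentose phosphate and one-carbon genes stood higher, at a median of 71.9 FPKM, led by the purine enzyme Paics (301 ± 16.2), Tkt (222 ± 30.4), Taldo1 (209.9 ± 45.2) and Pgls (197 ± 40.6 FPKM). Among the lowest were Rpe (22.4 ± 1.44), Impdh2 (7.88 ± 1.06) and Rpia (1.72 ± 0.295 FPKM).

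Antioxidant genes were high, with 22 of 25 at or above 10 FPKM. Behind Gpx1 came the peroxiredoxin Prdx2 (503 ± 32.0), thioredoxin Txn1 (429 ± 19.7) and Prdx6 (351 ± 55.3 FPKM). The secreted enzymes Gpx3 (0.783) and Sod3 (0.339 FPKM) were under 1 FPKM, and Hmox1 (20.0 ± 5.68) and Nqo1 (9.29 ± 3.42 FPKM) were low beside the rest.

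Replication genes were transcribed throughout. All 30 S phase genes averaged at least 10 FPKM and 16 at least 100, led by the helicase subunits Mcm6 (490.0, 465, 581 and 546), Mcm3 (326 ± 55.0), Mcm5 (225 ± 34.8) and Mcm2 (206 ± 37.8 FPKM). All 30 G2 and M phase genes averaged at least 1 FPKM, 28 of them at least 10, at a lower median of 36.6 FPKM against 118 FPKM for the S phase genes. Mki67, the proliferation antigen Ki-67, was at 19.2, 21.4, 14.4 and 19.3 FPKM, and the large kinetochore genes Cenpe (9.83 ± 2.81) and Cenpf (6.20 ± 2.16 FPKM) were lowest. Bulk values do not give the share of cells in cycle.

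Cyclins and their kinases were ordered within each family. Ccnd3 was at 190.3, 168, 233 and 178 FPKM, Ccnd2 at 70.8, 85.9, 104 and 102 FPKM and Ccnd1 at 7.62, 7.45, 13.4 and 9.98 FPKM, with no overlap. Cdk4 (680.4 ± 95.03 FPKM) was 7.68 times Cdk2 (88.6 ± 3.88 FPKM) in the mean, and Cdk1 (65.9 ± 6.18) and Cdk6 (65.4 ± 9.72 FPKM) overlapped. Ccne2 (27.6, 23.5, 26.0 and 21.0) and Ccne1 (20.2, 15.2, 21.4 and 17.8 FPKM) overlapped in range, though Ccne2 was higher within each library. Ccna2 was at 112 ± 8.93 FPKM with the germ cell form Ccna1 listed at 0, and Ccnb2 (112, 125, 47.1 and 77.6) was above Ccnb1 (32.6, 42.8, 21.3 and 24.997 FPKM) in each library, with Ccnb3 listed at 0.

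Of the CDK inhibitors, Cdkn2d, which encodes p19 of the INK4 class, was highest at 44.0, 41.9, 37.4 and 41.9 FPKM. Cdkn1a, the p21 gene and a p53 target, was at 25.8, 25.7, 16.6 and 19.6 FPKM. Cdkn1c was at 8.53 ± 1.59, Cdkn2c at 5.52, 4.96, 3.02 and 5.65 and Cdkn1b, the p27 gene, at 3.10, 3.79, 2.47 and 2.72 FPKM. Cdkn2a and Cdkn2b, whose induction is known from aged and stressed cells, were listed at 0 in every library. Other genes of growth arrest included Trp53 (152 ± 18.9), Rbl1 (41.7 ± 4.74) and Rbl2 (30.1 ± 3.63 FPKM), with Rb1 at 1.12, 2.93, 1.12 and 0.777 FPKM. Of the FoxO factors Foxo1 (6.80 ± 1.60 FPKM) stood above Foxo3 (1.19 ± 0.194) and Foxo4 (0.673 FPKM), and Foxo6 was listed at 0.

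Chromatin regulators included the maintenance methyltransferase Dnmt1 at 132, 101, 140.2 and 104 FPKM and its partner Uhrf1 at 79.6 ± 15.0 FPKM. Of the de novo enzymes Dnmt3b (61.1, 55.3, 53.1 and 57.5 FPKM) was above Dnmt3a (10.1, 8.97, 10.7 and 6.72 FPKM), with no overlap, and Dnmt3l was near 0. Tet3 (5.84, 6.08, 5.78 and 4.80) and Tet1 (5.30, 5.11, 4.43 and 6.11 FPKM) overlapped, and Tet2 (4.09, 3.60, 2.88 and 2.93 FPKM) was the lowest of the family in each library. The Polycomb methyltransferase Ezh2 (73.8 ± 2.03 FPKM) exceeded Ezh1 (17.4 ± 2.50 FPKM), the highest members were Rbbp7 (337 ± 29.4) and Rbbp4 (154 ± 10.9 FPKM), and Asxl3 was listed at 0. Of 32 genes 29 averaged at least 1 FPKM.

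Nutrient sensing genes were at moderate levels. Txnip, which glucose induces through the Mondo factors and which blocks thioredoxin, was at 169, 224, 132 and 161 FPKM. The Mondo factor Mlxip (50.2 ± 2.06) and its partner Mlx (34.2 ± 3.76 FPKM) were transcribed, and Mlxipl, the liver and fat form known as ChREBP, was listed at 0. The insulin receptor Insr was at 6.34, 6.88, 6.45 and 6.02 FPKM and the IGF1 receptor Igf1r at 7.15, 7.76, 5.47 and 6.61 FPKM, which overlapped. Irs2 (5.29, 5.36, 1.82 and 1.92 FPKM) was the substrate transcribed, as Irs1 was near 0 (0.00833 FPKM). Akt1 (25.1 ± 1.87 FPKM) was above Akt2 (19.9 ± 1.89 FPKM) in each library. The sirtuins ran from Sirt3 (138, 126, 100.1 and 111) through Sirt7 (50.5 ± 5.18), Sirt2 (33.3 ± 2.82), Sirt5 (17.5 ± 2.39), Sirt6 (12.8 ± 0.985) and Sirt4 (7.42 ± 1.06) to Sirt1 (3.08, 2.40, 2.48 and 1.83 FPKM).

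Immediate early genes, which stimulation switches on within minutes, were already high. Fos was at 430.0, 400.4, 285 and 492 FPKM, Dusp1 at 320.3, 376, 238 and 359 FPKM, Ier2 at 299.7, 297, 339 and 296 FPKM and Myc at 274, 256, 335 and 308 FPKM. Of 28 listed genes 18 averaged at least 10 FPKM and 8 at least 100. Among the 5 members under 1 FPKM were Atf3 (0.532), Egr2 (0.276), Egr3 (0.183) and Nr4a3 (0.0214 FPKM). Whether sorting added to these levels was not tested. Chaperones were also high: Hsp90ab1, Cct5 (616 ± 130.2), Hspa5 (568 ± 169) and Cct3 (499 ± 102 FPKM), as were the heat-inducible genes Hsp90aa1 (111 ± 19.9) and Dnajb1 (104 ± 19.3 FPKM), whereas Hspa1a (0.438, 0.499, 1.57 and 1.61), which has a near-identical copy, and Hspb1 (0, 0, 0 and 0.215 FPKM) were low.

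Of 30 interferon-stimulated genes 27 averaged at least 1 FPKM with no interferon given. Ly6e (761 ± 79.3), Ifi47 (137 ± 12.3), Irf1 (130.4 ± 29.1) and Bst2 (102 ± 19.5 FPKM) were highest, and Mx2 (1.37 ± 0.792), Mx1 (0.691), Ifit3 (0.678) and Ifi204 (0.0679, 0.0688, 0.0721 and 1.29 FPKM) were lowest. Of 17 MHC genes 11 averaged at least 100 FPKM. Class II genes were transcribed as well, with Cd74 at 83.9, 158, 121 and 281 FPKM, H2-Ab1 at 102, 158, 142 and 199.8 FPKM and H2-Aa at 38.7, 62.7, 65.6 and 141 FPKM, each highest in replicate 4. Ciita, the class II activator, was at 1.07, 1.23, 0.647 and 0.489 FPKM, and among the class I genes B2m, H2-K1 and H2-D1 were followed by the immunoproteasome subunit Psmb8 (643 ± 77.97 FPKM).

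**Figure D3:**
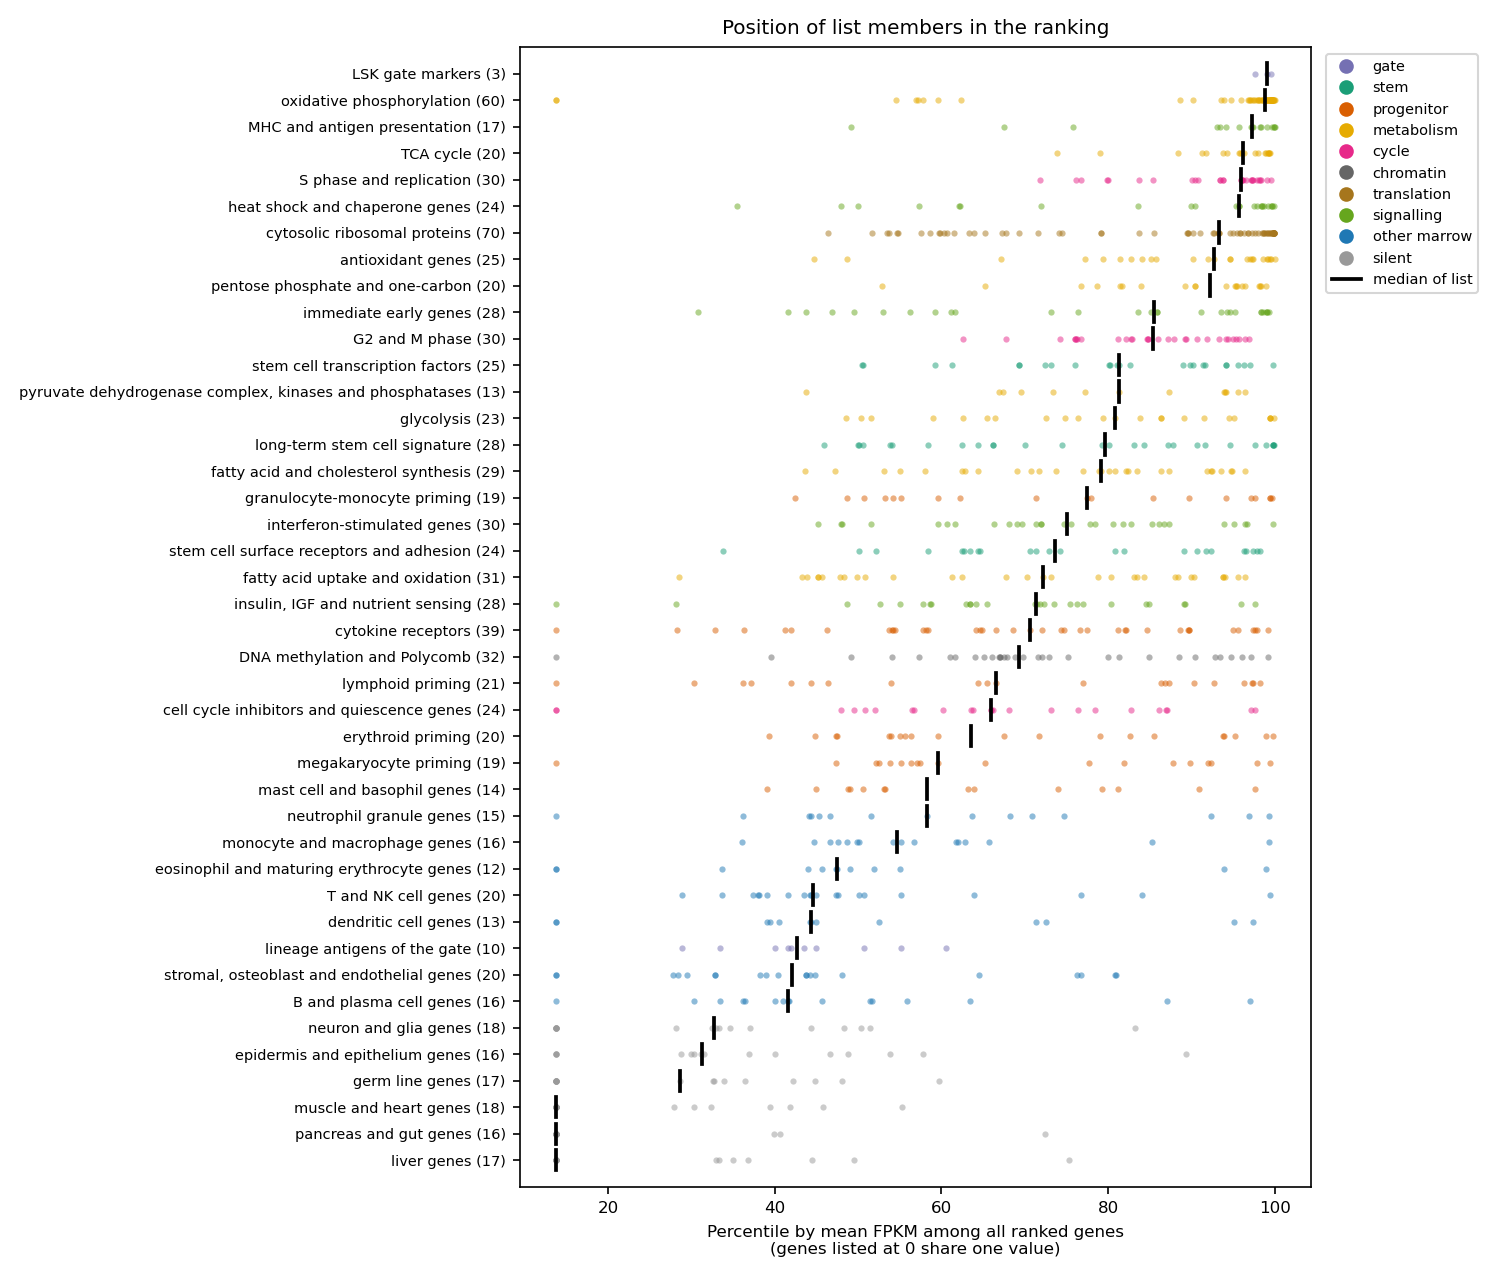
Percentile by mean FPKM among all ranked genes for each member of the 42 gene lists (points, coloured by role, number of genes in brackets) with the median of each list as a black bar. The gate marker, oxidative phosphorylation, antigen presentation, TCA cycle and S phase lists sit at the top. Lists of other marrow cell types sit near the 50th percentile or under it, and lists of other tissues at the bottom.

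Genes of other marrow cells were read as a check of the sort. Neutrophil genes were present at levels from 0 to above 100 FPKM. Ngp was at 8.92, 8.74, 37.7 and 12.2 FPKM, Camp at 3.99, 8.82, 25.03 and 11.8 FPKM, Ltf at 1.51, 3.06, 8.37 and 2.30 FPKM and S100a8 at 84.0, 114, 240.5 and 126 FPKM, each highest in replicate 3. Of the 15 neutrophil genes 6 averaged under 1 FPKM, and the summed FPKM of the list ranged from 517 to 801. Lyz2 (382 ± 28.9 FPKM), which progenitors of the myeloid branch also transcribe, made up the largest part. Of 16 monocyte and macrophage genes 10 averaged at least 1 FPKM (summed FPKM 430.5 to 485), among them Cd68 (36.3 ± 15.2), C1qb (8.17 ± 1.96), C1qc (6.38 ± 1.74), Axl (5.82 ± 0.355), Vcam1 (5.73 ± 1.67) and Cd163 (3.12 ± 0.459 FPKM), while Adgre1, the F4/80 gene, listed as Emr1, was at 0.280, 0.378, 1.04 and 1.47 FPKM.

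Lymphoid and stromal genes were mostly near-silent. Of 16 B and plasma cell genes 10 averaged under 1 FPKM (summed FPKM 161 to 239). Xbp1 (145 ± 34.0) and Cd79b (42.1 ± 6.78 FPKM) held nearly all of the sum, and Cd79a was at 0, 0.128, 0.135 and 0 FPKM. Of 20 T and NK cell genes 13 averaged under 1 FPKM (summed FPKM 409.6 to 539), the sum coming from Nkg7 and, far below, Lck (33.1 ± 3.50) and Ctsw (19.4 ± 8.75 FPKM). Of 13 dendritic cell genes 8 averaged under 1 FPKM (summed FPKM 276 to 332). Flt3 (162), Bst2 (102), Tcf4 and Irf8 were the highest and averaged at least 10 FPKM, while the plasmacytoid gene Siglech was listed at 0. Of 12 eosinophil and maturing erythrocyte genes 8 averaged under 1 FPKM. The 4 above it were Hbb-b1, Hba-a1, Alas2 and Siglecf, and the eosinophil genes Epx and Prg3 were listed at 0. Of 20 stromal, osteoblast and endothelial genes 15 averaged under 1 FPKM (summed FPKM 85.1 to 109). The remaining ones, Tie1 (26.2 ± 2.52), Emcn (25.9 ± 4.62), Pecam1 (19.5 ± 3.10), Runx2 and Pdgfrb (7.40 ± 2.57 FPKM), stood beside near-silent Kdr (0.348), Cdh5 (0.00988), Col1a1 (0.0902) and Lepr (0.0335 FPKM). The part of these cell types in the levels above was not tested.

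Tissue genes that blood cells do not use set the floor. Of 17 liver genes 10 were listed at 0 in every library, including Alb, Apoc3, Fga, Fgb, Cyp2e1 and the gluconeogenic genes Pck1 and G6pc. Of 16 pancreas and gut genes 13 were listed at 0, Ins1, Ins2, Gcg and Cdx2 among them, and of 18 muscle and heart genes 11, with Myh6, Myh7, Actc1 and Myod1. Of the neuron and glia genes 7 of 18 were listed at 0 in every library, of the germ line genes 8 of 17 and of the epithelial genes 4 of 16, and 15, 16 and 13 of them averaged under 1 FPKM. Large receptor families followed: 943 of 1095 olfactory receptors and 279 of 318 vomeronasal receptors were listed at 0, and only 2 olfactory receptors, Olfr646 (1.86) and Olfr56 (1.47 FPKM), averaged at least 1 FPKM.

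The highest exceptions in these lists, Krt18, Mbp, Hnf4a and Cela1, were close across the 4 libraries, and the lower ones varied more. Krt18, a keratin of simple epithelia, was at 50.9, 52.4, 47.9 and 52.8 FPKM, while its partner Krt8 was at 0.887, 1.17, 0.188 and 0.935 FPKM. Mbp, the myelin basic protein gene, which also gives rise to the golli transcripts of blood cells, was at 31.3, 29.6, 30.2 and 33.0 FPKM, with Mog listed at 0. Hnf4a, a nuclear receptor of liver and gut, was at 16.7, 19.4, 19.6 and 14.1 FPKM with its textbook target genes Alb and Apoc3 listed at 0. The elastase gene Cela1 was at 13.6, 11.5, 17.6 and 14.0 FPKM, the germ cell helicase Ddx4 at 3.82, 7.28, 2.29 and 4.89 FPKM, Tnni3 at 1.38, 3.03, 2.69 and 3.15 FPKM and Epcam at 3.67, 5.04, 1.87 and 3.79 FPKM. Syp (1.07 ± 0.588) and Krt10 (2.07 ± 0.682 FPKM) were also above 1 FPKM.

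Promoter sequence differed between these classes of level. RefSeq promoters (GRCm38.p6) matched 15704 ranked genes by symbol, and the 250 bases before the start site were read on the strand of the gene. The ratio of observed to expected CpG dinucleotides had a median of 0.194 in 4265 genes listed at 0 in every library, 0.401 in genes over 0 and under 1 FPKM, 0.707 from 1 to 10 FPKM, 0.761 from 10 to 100 FPKM and 0.777 from 100 to 1000 FPKM. It was 0.612 in the 18 matched genes at or above 1000 FPKM, and 0.550 over all matched genes. The hexamer TATAAA, searched on the strand of the gene between 50 and 11 bases before the start, was found in 6.73% of genes listed at 0, in 3.24% over 0 and under 1 FPKM, in 1.41% from 1 to 10 FPKM, in 0.763% from 10 to 100 FPKM, in 2.31% from 100 to 1000 FPKM and in 1 of the 18 above. Over all matched promoters the share was 3.11%. The listed stem cell factors with a promoter (20) had a median ratio of 0.710 and none held the hexamer, and the granulocyte-monocyte priming genes (15) had a median of 0.267. These are descriptions across genes with no test.

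The promoters of a gate gene, a stem cell factor, a primed granule gene and a silent liver gene are shown because they span these classes. Each run holds the 250 bases before the first listed RefSeq start site on the plus strand of GRCm38.p6, with CG dinucleotides in capitals. They lie at chr5:75574737-75574986, chr6:88193641-88193890, chr11:87793534-87793783 and chr5:90460620-90460869.
Kit: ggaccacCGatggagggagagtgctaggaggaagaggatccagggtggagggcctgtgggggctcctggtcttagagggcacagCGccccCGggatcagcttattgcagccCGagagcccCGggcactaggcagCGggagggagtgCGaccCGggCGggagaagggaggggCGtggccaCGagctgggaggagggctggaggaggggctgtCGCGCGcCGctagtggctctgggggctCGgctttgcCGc
Gata2: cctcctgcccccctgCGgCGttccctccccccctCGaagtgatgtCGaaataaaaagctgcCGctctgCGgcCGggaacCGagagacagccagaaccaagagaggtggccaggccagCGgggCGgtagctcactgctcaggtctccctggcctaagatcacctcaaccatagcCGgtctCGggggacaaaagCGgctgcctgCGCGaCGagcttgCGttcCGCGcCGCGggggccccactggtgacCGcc
Mpo: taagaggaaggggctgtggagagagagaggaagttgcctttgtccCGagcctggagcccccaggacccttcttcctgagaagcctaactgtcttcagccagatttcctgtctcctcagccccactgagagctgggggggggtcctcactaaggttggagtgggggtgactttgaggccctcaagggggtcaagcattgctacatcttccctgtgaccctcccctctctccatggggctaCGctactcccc
Alb: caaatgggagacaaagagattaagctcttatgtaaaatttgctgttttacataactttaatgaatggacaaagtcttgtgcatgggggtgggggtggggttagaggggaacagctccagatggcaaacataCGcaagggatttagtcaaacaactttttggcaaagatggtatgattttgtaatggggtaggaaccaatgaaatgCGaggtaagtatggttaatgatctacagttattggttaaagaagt
The Kit run holds 17 CG dinucleotides and the Gata2 run 22, at levels of 174 and 55.6 FPKM. The Mpo run holds 2, as does that of Alb, although Mpo was at 151 FPKM and Alb was listed at 0 in every library. A CpG-poor promoter was therefore found at both ends of the range of levels, and none of the 4 runs holds TATAAA in the window searched.

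A limit of the deposited values was seen in some of the best known housekeeping genes. Gapdh averaged 1.35 FPKM, and the following genes, chosen after their values were seen, were also low for genes that nearly every cell uses: Ppia at 0.268, 1.09, 0.855 and 0.566 FPKM, Rpl23a at 2.02, 1.23, 0.429 and 0.425 FPKM and Tpt1 at 15.9, 17.8, 16.9 and 18.7 FPKM. Atp5g2, of the oxidative phosphorylation list, was listed at 0 in every library. Whether such an exact 0 stands for a silent gene was not tested. Near-identical copies were counted for each gene as other annotated genes that match at least 80% of its coding sequence at 95% identity or more. Gapdh had 70 such copies, 67 of them pseudogenes, Ppia had 16, Rpl23a 19, Tpt1 3 and Atp5g2 2, against none for Actb (1319 FPKM).

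The same split ran through the 70 cytosolic ribosomal protein genes, whose products are needed in equal amounts. The 6 genes with no copy had a median of 836 FPKM, with the lowest at 115 FPKM. The 28 genes with 1 to 4 copies had a median of 97.0 FPKM, and the 36 genes with 5 or more a median of 52.3 FPKM, with 12 of the 36 under 10 FPKM. Copy number did not fix the level, since Rpl32 with 5 copies was at 1446 FPKM and Rpl11 with 6 copies at 0.734, 0, 0.390 and 0.774 FPKM. The part of shared reads in these levels was not tested, and levels of ribosomal protein genes and of the named housekeeping genes are therefore uncertain. Of the 25 stem cell factors 24 had no copy.

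**Figure D4:**
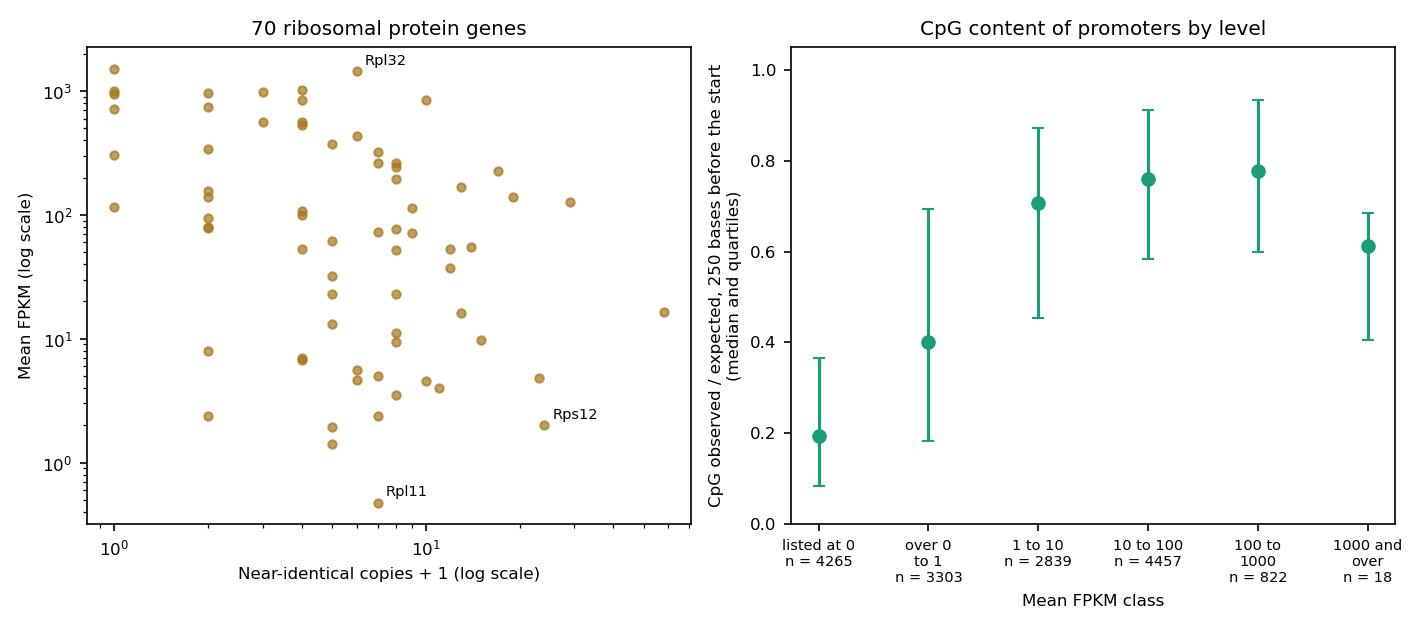
Left, mean FPKM (log scale) of the 70 cytosolic ribosomal protein genes against the number of near-identical copies plus 1 (log scale), 1 point per gene. Right, median and quartiles of the CpG ratio in the 250 bases before the start site for classes of mean FPKM, which rises from 0.194 in genes listed at 0 to 0.777 in genes of 100 to 1000 FPKM.

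The 4 libraries were not equally alike. The file headers of PBS replicates 1 and 2 carry a tag that those of replicates 3 and 4 lack, and the series text gives each treatment its own PBS controls, so the libraries may come from a pair of experiments. Pearson's r of log2(FPKM + 1) was 0.985 between replicates 1 and 2 and 0.980 between replicates 3 and 4, against 0.971 to 0.977 across the pairs. With limma on log2(FPKM + 1), 11407 genes that reached 1 FPKM in 2 libraries or more were compared between the pairs. Of these 129 (1.13%) passed an adjusted p of 0.05, and 94 (0.824%) were higher and 35 (0.307%) lower in replicates 1 and 2. For 24.6% of genes tested both tagged libraries lay above both others, and for 25.8% both lay below. Such p-values measure only the spread between these samples, which may be technical, and what else differed between the pairs was not tested. The counts rest on single libraries: they were 553 higher and 636 lower without replicate 4, 283 and 143 without replicate 3, 32 and 8 without replicate 1, and 42 and 15 without replicate 2.

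Among the 129 genes that passed the adjusted p, the 5 with the largest differences toward higher levels in replicates 1 and 2 were 3 globin genes, a histone gene and Igj. Beta-s, given above by library, was higher in replicates 1 and 2 by 3.01 ± 0.15 (SE) on the log2 scale (limma, adjusted p = 8.14e-05), Hba-a2 by 2.92 ± 0.23 (limma, adjusted p = 0.00175) and Hba-a1 by 2.77 ± 0.14 (limma, adjusted p = 8.14e-05). Igj, the joining chain of polymeric antibodies, was at 4.56, 6.29, 0 and 0.315 FPKM (limma, 2.47 ± 0.29, adjusted p = 0.0127). Hist1h2bc, a histone H2B gene, was at 153, 140.1, 22.6 and 31.0 FPKM (limma, 2.43 ± 0.16, adjusted p = 0.000504). Among the genes that passed in the other direction, lower in replicates 1 and 2, the 5 with the largest differences were 4930549G23Rik (3.74, 1.83, 10.9 and 14.3), Hist1h2af (0.766, 0.776, 4.07 and 4.84), Zdhhc23 (1.59, 1.34, 5.91 and 6.70), 5730408K05Rik (12.9, 8.97, 40.2 and 28.0) and 4833417C18Rik (3.44, 3.62, 9.21 and 10.9 FPKM), with log2 differences of -1.88, -1.62, -1.57, -1.55 and -1.28 (limma, adjusted p 0.0247 to 0.0280). Of 20 erythroid priming genes 17 were tested and 5 called, all higher in replicates 1 and 2: the 3 globin genes, Car1 (13.5, 19.9, 2.31 and 2.75) and Alas2 (4.401, 4.66, 0.349 and 0.432 FPKM).

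Over all 11407 genes tested 1.13% were called and 2176 had an unadjusted p under 0.05. None of the 3 gate genes, 25 stem cell factors or 22 surface genes tested was called by limma, while 0, 2 and 3 of them had an unadjusted p under 0.05. Of the 25 factors 10 had both tagged libraries above the others and 3 below, where the shares over all genes tested were 24.6% and 25.8%. Of 27 long-term stem cell signature genes tested 1 was called, Nupr1, a stress-induced chromatin protein, which was lower in the tagged pair at 17.6, 15.8, 28.5 and 31.4 FPKM (limma, -0.80 ± 0.15, adjusted p = 0.0456). Mast cell and basophil genes were not called either (8 of 10 had an unadjusted p under 0.05), yet all 10 tested had both tagged libraries above the others, and their median difference was 1.70 on the log2 scale beside a median of -0.0016 over all genes tested. Oxidative phosphorylation and S phase genes lay the other way without a call, beside the 25.8% of all genes tested that lay below. Both tagged libraries were below the others in 44 of 58 and 20 of 30 genes, with medians of -0.28 and -0.26. So they were in 44 of 69 ribosomal protein and 19 of 22 heat shock and chaperone genes. In these lists limma called 1 gene each, Rpl38 and Hspa8, lower in the tagged pair. Of the MHC genes 5 of 17 lay below, near the 25.8% of all genes tested. The summed FPKM of the ranked genes was 489664 and 494305 in replicates 1 and 2, and 538694 and 521232 in replicates 3 and 4. The part of this offset in the counts of abundant genes was not tested. Of 30 G2 and M phase genes, again with no call, 17 had both above, beside 24.6% of all genes tested, with a median of 0.32. Of the oxidative phosphorylation, S phase and G2 and M phase genes 32, 13 and 10 had an unadjusted p under 0.05 (limma). Over all 11407 genes tested 2176 did. Of 9 neutrophil genes tested 1, S100a9 (34.9, 52.3, 106 and 85.3 FPKM), was lower in the tagged pair (limma, -1.13 ± 0.19, adjusted p = 0.0376). These groups differed by library within pairs as well, as the mast cell genes in replicate 4 and the neutrophil genes in replicate 3 show.

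**Figure D5:**
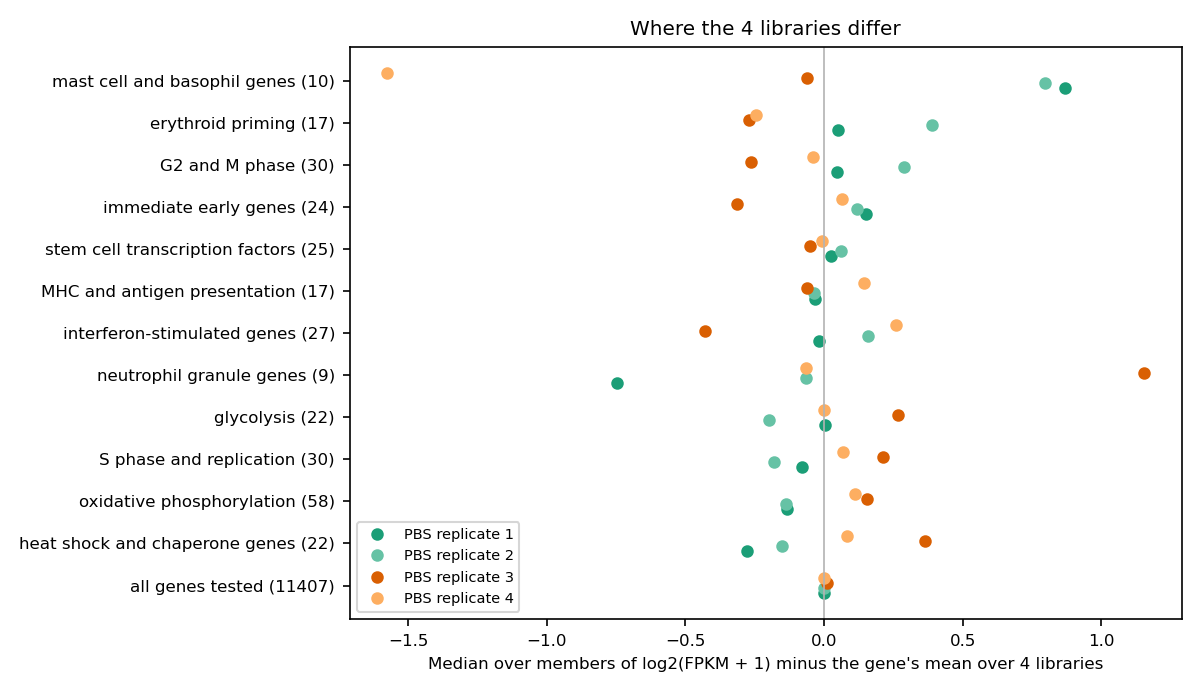
Median over the tested members of each gene list (number in brackets) of log2(FPKM + 1) in a library minus the gene's mean over the 4 libraries, 1 point per PBS replicate. Mast cell and basophil genes lie at -1.57 in replicate 4 and neutrophil granule genes at 1.15 in replicate 3, while the stem cell factors lie between -0.05 and 0.06.

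The most and least even genes were found across functions. Among genes with a mean of at least 10 FPKM the widest ranges were in the non-coding symbols LOC100302567 (0, 329.8, 346 and 343) and Rnu11 (0, 0, 120.1 and 0 FPKM), each with libraries listed at 0, then in Cma1, Tpsb2, Hba-a2, Beta-s, Slain1 (25.2, 25.1, 2.02 and 6.99) and Csnk1g2 (71.3, 63.0, 8.37 and 19.3 FPKM). Among genes with a mean of at least 100 FPKM the steadiest were Pabpc1, the poly(A)-binding protein gene, at 162, 160.3, 159.7 and 159.6 FPKM with a coefficient of variation of 0.554%, Tmbim6 (1.09%), Acsl5 (1.42%), Tspan32 (1.56%), Ech1 (1.73%), Arhgdib (1.93%), Aldh2 (1.96%) and Gnai2 (1.98%). With 4 libraries a low coefficient of variation can arise by chance among 1128 genes, and these values describe the libraries only.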

How the data were processed

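RNA from sorted LSK cells was sequenced from SMART-Seq HT cDNA after Nextera XT preparation, per the labels' protocols. The authors deposited 1 table of FPKM per library, with a gene symbol per row. TopHat2 2.0.13, Bowtie2 2.2.3, SAMtools 1.0, Cuffnorm 2.2.1 and mm10 are named, with no order, in the submitters' processing notes, and the annotation is not given in the sources used here. Cuffnorm is built to scale libraries to each other, which was not tested here.

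Genes were ranked by the mean FPKM of the 4 PBS libraries. Means, standard deviations and percentiles were computed with Python 3.11.15, numpy 2.4.6 and pandas 2.3.3. Of 976 memberships in 42 gene lists 970 were in the files, 10 of them under an older symbol. The members and lists were chosen with earlier results of these data known.

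PBS replicates 1 and 2 were compared with replicates 3 and 4 by limma 3.58.1 in R 4.3.3, with a mean-variance trend on log2(FPKM + 1), over genes that reached 1 FPKM in 2 libraries or more, and with Benjamini-Hochberg adjustment at 0.05. A difference on this scale understates the change of low genes. The procedure was tested on simulated data. Alternatives were another pseudocount, other filters, no trend, median-centring, rescaling, other rules on symbols and leaving out each library. Depth was estimated from the smallest values, so no counting interval is given for single genes. Near-identical copies were found with blastn 2.17.0 among GENCODE transcripts, for 925 of 929 genes queried. Promoters and gene names came from RefSeq tables of GRCm38.p6.

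Genes are named by rule: the 30 highest, up to 4 highest and 4 lowest members of each list, gate genes, stem cell factors, whole families, the 8 most and 8 least even genes, 5 genes per direction between the pairs, and members of tissue and marrow lists at or above 1 FPKM. Any other gene named, such as further members of a list, was chosen after its values were seen. Some members of the lists and families are not reported here.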

Additional observations from a re-analysis of the deposited data

Results flagged for a closer look

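In 35 of 425 named genes whose 4 libraries differed, 1 library stood far from the other 3, judged by the gap to its nearest neighbour over the whole range of the 4 values, against Dixon's critical value. Chance places about 1 in 20 groups past that value, and no cause was tested for any of them. Genes above 0 in 1 library only, given last, have a gap that is fixed at 1. Without them the count is near 1 in 20 of the 425, so the genes are listed and are not read as findings. The ratio does not weigh the size of the range, so a small gap can pass.

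In replicate 3, Ngp was highest at 37.7 FPKM (gap 0.880), Ier2 at 339 (gap 0.919), Paics at 325 (gap 0.857), Sirt5 at 21.1 (gap 0.974) and Olfr646 at 3.29 FPKM (gap 0.832). The interferon genes Irf1 (gap 0.888) and Ifnar2 (gap 0.852) were lowest there, at 87.1 and 94.4 FPKM, as was the adhesion receptor Gpr56 at 624 FPKM (gap 0.873).

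In replicate 4, H2-D1 was highest at 1524 FPKM (gap 0.942), Ifi204 at 1.29 FPKM (gap 0.997) and Egr3 at 0.371 FPKM (gap 0.971). Tal1 (gap 0.860) and Eng (gap 0.941) were lowest there, at 10.1 and 62.7 FPKM. In replicate 1, Hoxa6 was highest at 3.18 FPKM (gap 0.853) and Slc2a9 at 2.13 FPKM (gap 0.831), and Epor was lowest at 0.787 FPKM (gap 0.881). LOC100302567 was listed at 0 there and at 329.8 FPKM or more in the others (gap 0.954). In replicate 2, Rb1 was highest at 2.93 FPKM (gap 0.838), and Aco1 (gap 0.841) and Eno2 (gap 0.865) were lowest, at 14.7 and 0.711 FPKM. Fabp3 was listed at 0 there (gap 0.942).

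A further 14 genes were above 0 in 1 library only, which gives a gap of 1. They were Cd8a, Ldhc, Ms4a1 and Xist in replicate 1, Id4 and Nr4a3 in replicate 2, Il2ra and Rnu11 in replicate 3, and Cdh5, Ebf1, Gata4, Gata5, Hspb1 and Irs1 in replicate 4. Rnu11, a small nuclear RNA gene, reached 120.1 FPKM, and the other 13 reached 0.257 FPKM or less.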

How the results depend on the processing

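No paired analysis was possible because the PBS libraries of the pairs do not share replicate numbers. The number of genes at or above 100 FPKM was 2400 instead of 1128 when the ranked genes of each library were rescaled to a sum of 1e+06, which raises every value, and the number holding 50% of the summed FPKM was 354 instead of 885 when no symbol was left out. The counts of genes at or above 1 FPKM and listed at 0 stayed within 1.5 times of the reported value under each alternative run. Between the pairs 129 genes were called by limma, 94 higher and 35 lower in replicates 1 and 2. Without a mean-variance trend 5 were called, 5 higher and 0 lower. Leaving out 1 library in turn gave 40 to 1189 calls, 32 to 553 higher and 8 to 636 lower, where the library left alone in its pair is assumed to vary like the other pair. With a pseudocount of 0.1 there were 103 calls, with at least 5 FPKM required 144, and after median-centring 112, of which 103, 120 and 109 were among the 129. With no filter 116 genes were called, and none of them was among the 129. The cause was not tested. Each of the 10 genes named for the pairs lost its call with no filter, 7 without the trend (Hba-a2, Igj and the 5 lower genes), Hist1h2af and 4833417C18Rik without replicate 1, and these and Zdhhc23 without replicate 2, and none changed direction. The same rescaling moved 394 of 463 levels of named genes, since it raises them all. Of the 42 list medians of percentiles, 5 moved by more than their spread over libraries on leaving out each single library, 8 with the median in place of the mean, and 40 when only genes at or above 1 FPKM were ranked, which removes the silent genes. For a 2 kb transcript, levels under about 0.1 FPKM rest on single fragments at the estimated depth.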

Other observations

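Cell death, pattern recognition and surface families add to the picture of these cells. Of the 18 BCL2 family genes Mcl1, a short-lived protein that keeps stem cells alive, was highest at 133, 112, 40.6 and 86.2 FPKM in PBS replicates 1 to 4 and held the first place in 3 libraries. The death effector Bax was at 73.5, 68.9, 88.6 and 79.1 FPKM, which overlapped with Mcl1, and its relative Bak1 at 1.74, 1.04, 1.34 and 1.41 FPKM. Bid (63.2 ± 5.36), Bad (27.5 ± 0.916), Bcl2 (27.0 ± 2.52) and Bcl2l1 (21.1 ± 2.57 FPKM) followed. The p53 targets Bbc3 (1.44 ± 0.458) and Pmaip1 (0.990 FPKM) were low. Among 12 Toll-like receptors Tlr4, the receptor of lipopolysaccharide, was at 6.97, 11.5, 6.29 and 5.70 FPKM and Tlr2 at 6.96, 6.89, 5.63 and 5.47 FPKM. Their ranges overlapped, and Tlr12 (2.14 ± 0.537) and Tlr7 (1.93 ± 0.608 FPKM) were the remaining ones at or above 1 FPKM.

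Of the Notch receptors Notch2 (20.3, 17.9, 16.5 and 14.0 FPKM) was above Notch1 (8.38, 9.78, 4.77 and 9.05 FPKM), without overlap, and Notch3 (0.256) and Notch4 (0.166 FPKM) were near-silent. In the Ly6 family, which holds the gate gene, Ly6e (671, 718, 836 and 819 FPKM) stood above Ly6a in each library. Ly6c2 was at 8.37, 5.57, 3.81 and 6.04 FPKM, and the other 6 members averaged 2.00 FPKM or less. The Y-linked genes Eif2s3y (42.1 ± 8.68), Ddx3y (21.7 ± 4.25), Uty (10.4 ± 3.59) and Kdm5d (6.60 ± 0.462 FPKM) were present in each library, and Xist was listed at 0 in 3 libraries and at 0.0179 FPKM in replicate 1. All libraries thus matched the labelled male sex. These genes were chosen after their values were seen.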
